A study of Mus musculus with 3 samples.

Results

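The 8 genes described here encode the histone variants that cells make outside the S phase programme: H2afz and H2afv (the H2A.Z pair), H2afx (H2A.X), H2afy (macroH2A1), H2afj (H2A.J), H3f3a and H3f3b (the H3.3 pair) and H1f0 (the linker histone H1.0). They were chosen by name, and all 8 had a row in the CBTi-seq table of 20717 genes and in the 3' tables of 55402 genes. In the CBTi-seq table, 5 of the 8 stand under newer symbols: H2az1 is H2afz, H2az2 is H2afv, H2ax is H2afx, Macroh2a1 is H2afy and H2aj is H2afj. The data come from L929, an established mouse fibroblast line, in which a knockdown of Rrm2, the small subunit of ribonucleotide reductase, was set against a control. CBTi-seq gave 1 sample with 10 columns named control and 10 named knock, and a method aimed at the 3' end of transcripts gave 1 sample labelled control and 1 labelled knock, each with 8 numbered columns. Single cells were drawn into a capillary and their RNA was primed with oligo dT, per the labels' protocols. The sources used here do not say how the knockdown was made, how long it ran or how many cultures were used.

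The core histones that package newly copied DNA come from clustered genes that are transcribed in S phase, and their mRNAs end in a stem-loop in place of a poly(A) tail. The variant genes stand alone, most have introns, and their mRNAs are polyadenylated, so they can be made throughout the cycle and in cells that have stopped dividing. Several of them are enriched at particular places: H2A.Z and H3.3 at promoters and enhancers, and macroH2A1 in repressed chromatin. H2A.X is spread through chromatin and is phosphorylated in place beside DNA breaks, and H1.0 is the linker histone of differentiated or resting cells. H2afx is known to stand between both classes, since it can end either in a stem-loop or in a poly(A) tail.

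The ends of the annotated transcripts showed this difference. H2afx lies on chromosome 9 (GENCODE vM21 on GRCm38, 44334694 to 44336077, plus strand) as a single exon. A stem-loop of the histone type begins 47 bases after the end of its coding sequence and ends 822 bases before the end of the transcript. It is shown because no other of the 8 genes matched the motif searched for, with the letters of the stem and loop in capitals, at chr9:44335240-44335255 on the plus strand.
H2afx stem-loop: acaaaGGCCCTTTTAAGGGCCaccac
The motif was found in the longest coding transcript of 1 of the 8 variant genes. Over all their transcripts, 46 of 67 replication-dependent histone genes (68.7%) held it. A gene without a match may thus still hold a stem-loop. The poly(A) signal AATAAA stood within the last 50 bases of the longest coding transcript of 4 of the 8 genes (H2afv, H2afj, H3f3a and H1f0), and with ATTAAA counted too, H2afz and H2afx brought this to 6. H2afj and H1f0 are also single exons, while H2afz and H2afv have 5 exons each, H3f3a has 4, H3f3b has 6 and H2afy has 9.

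Each pair of genes makes nearly the same protein from different DNA. The coding sequences of H3f3a and H3f3b differed at 95 of 411 bases (76.9% identity), and those of H2afz and H2afv at 81 of 387 (79.1%). The promoters of both pairs are printed because the members of each pair are compared below. Each runs from 250 bases before to 50 after the RefSeq start (GRCm38.p6), 5′ to 3′ on the gene's own strand, with each CCAAT or its complement ATTGG in capitals. The windows are chr3:137864237-137864536 (plus) for H2afz, chr11:6444394-6444693 (minus) for H2afv, chr1:180813556-180813855 (minus) for H3f3a and chr11:116024455-116024754 (minus) for H3f3b.
H2afz: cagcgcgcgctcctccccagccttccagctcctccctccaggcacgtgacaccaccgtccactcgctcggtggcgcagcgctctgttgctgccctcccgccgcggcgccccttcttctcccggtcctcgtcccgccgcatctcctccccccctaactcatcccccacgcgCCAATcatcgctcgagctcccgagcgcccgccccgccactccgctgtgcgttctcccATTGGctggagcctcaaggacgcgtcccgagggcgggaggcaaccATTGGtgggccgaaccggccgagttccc
H2afv: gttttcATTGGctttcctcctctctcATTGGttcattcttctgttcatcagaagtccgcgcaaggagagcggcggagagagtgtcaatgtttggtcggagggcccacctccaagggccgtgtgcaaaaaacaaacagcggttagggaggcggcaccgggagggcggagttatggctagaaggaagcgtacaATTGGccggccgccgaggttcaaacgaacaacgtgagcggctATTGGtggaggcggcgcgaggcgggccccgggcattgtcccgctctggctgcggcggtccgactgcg
H3f3a: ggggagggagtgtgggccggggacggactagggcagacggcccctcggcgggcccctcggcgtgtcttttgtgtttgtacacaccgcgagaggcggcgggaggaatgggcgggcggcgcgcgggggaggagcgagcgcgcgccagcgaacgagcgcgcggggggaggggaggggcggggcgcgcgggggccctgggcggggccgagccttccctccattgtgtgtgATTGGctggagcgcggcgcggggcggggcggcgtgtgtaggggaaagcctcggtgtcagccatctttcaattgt
H3f3b: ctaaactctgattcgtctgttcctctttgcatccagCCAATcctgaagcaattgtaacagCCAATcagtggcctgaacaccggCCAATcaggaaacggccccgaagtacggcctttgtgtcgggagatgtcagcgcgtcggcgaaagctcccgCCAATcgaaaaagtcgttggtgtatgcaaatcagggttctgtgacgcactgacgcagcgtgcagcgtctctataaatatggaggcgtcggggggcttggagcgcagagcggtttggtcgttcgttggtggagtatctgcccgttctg
Promoter windows were found for 7 of the 8 genes, and 5 held the CCAAT box on either strand: 4 matches each in H2afv and H3f3b, 3 each in H2afz and H2afj, and 1 in H3f3a. Of all 32851 RefSeq windows of this length, 37.4% held at least 1 match and 3.21% held at least 3. The letters TATAAA stood 27 bases before the start of H3f3b alone (13.6% of all windows, either strand). TTTGAA or TTCGAA, the core of the cell cycle homology region, was found in H2afv alone (19.2% of all windows, either strand). The match reads TTCAAA, the complement of TTTGAA, and stood 41 bases before the start. A match describes the letters and is no evidence that a factor binds.

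Column totals ran from 41570 to 846819 counts in the CBTi-seq control columns, 153051 to 735871 in the knock columns, 399393 to 2496457 in the 3' control-labelled library and 814960 to 1973137 in the knock-labelled one. Levels are in CPM, a gene's share of all gene counts, over the summed columns of a group, and intervals in brackets are exact 95% intervals for counting error only. Each group is 1 sample and its columns are not replicates, so no difference below has a replicate check or a test. Rrm2 stood at 481 CPM in the control and 350.1 CPM in the knock columns of CBTi-seq (log2 ratio -0.46, -0.56 to -0.35), with overlapping columns. In the 3' libraries it went against the label, at 39.1 CPM in the control-labelled library (29.2 to 49.6 over columns) and 148 CPM in the knock-labelled one (123 to 173). Of the 12 fibroblast markers, 5 of 7 from 20 CPM were lower in the CBTi-seq knock columns (median log2 ratio -0.14), with Col1a2 at 101 and 42.2 CPM (-1.26), Pdgfrb at -0.83 and Fn1 at -0.62. All 4 from 20 CPM in the 3' libraries were higher in the knock-labelled one, with S100a4 at 1.73 and Col1a1 at 1.49. The defining markers Thy1, Lum and Dcn had no row in CBTi-seq and at most 18.1 CPM in the control-labelled 3' library. Dcn, below 20 CPM, went the other way from those 4, at 18.1 CPM in the control-labelled and 4.80 CPM in the knock-labelled library (-1.92). The epithelial gene Cdh1 had no CBTi-seq row but stood at 188 and 110.5 CPM in the 3' libraries. Of the 8 epithelial markers, 4 (Krt5, Krt14, Krt18 and Cldn4) were at 0 in both 3' libraries. Only 2, Cdh1 included, had a mean of 20 CPM or more there, both lower in the knock-labelled one. The macrophage gene Cd68 stood at 43.5 and 20.0 CPM in CBTi-seq and 77.8 and 149.96 CPM in the 3' libraries. Ptprc was at 0 in the 3' libraries, which allows a level of up to 0.424 and 0.327 CPM. The part of other cell types in the results below was not tested.

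In CBTi-seq the histone variants were close to level between control and knock columns. None of the 8 was at least 2-fold apart at a mean of 50 CPM or more, where 1.01% of 5243 genes were (0.343% higher and 0.668% lower), and none had columns that did not overlap, where 0.191% of genes did (0.0763% higher and 0.114% lower). H2afz, H2afx, H2afy and H3f3b were higher in knock and H2afv, H2afj, H3f3a and H1f0 lower, with a median log2 ratio of 0.03 beside -0.05 over all genes from 20 CPM. Of the 8 genes, 7 had more CPM in the knock-labelled 3' library and H3f3a had less, with a median of 0.68 over the 8 and of 0.50 over the 7 genes from 20 CPM, beside 0.18 over all genes. H2afx alone was at least 2-fold apart at a mean of 50 CPM or more (13.3% of 2826 genes were called higher and 4.53% lower, 17.9% in all). H2afz, H2afv and H2afx had columns that did not overlap, all higher, beside 24.6% of genes that were higher in this way (11.7% lower, 36.3% in all). That share is over genes from 50 CPM, which 7 of the 8 members reach, and beside it 3 of 7 is no result about these genes in particular.

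**Figure D1:**
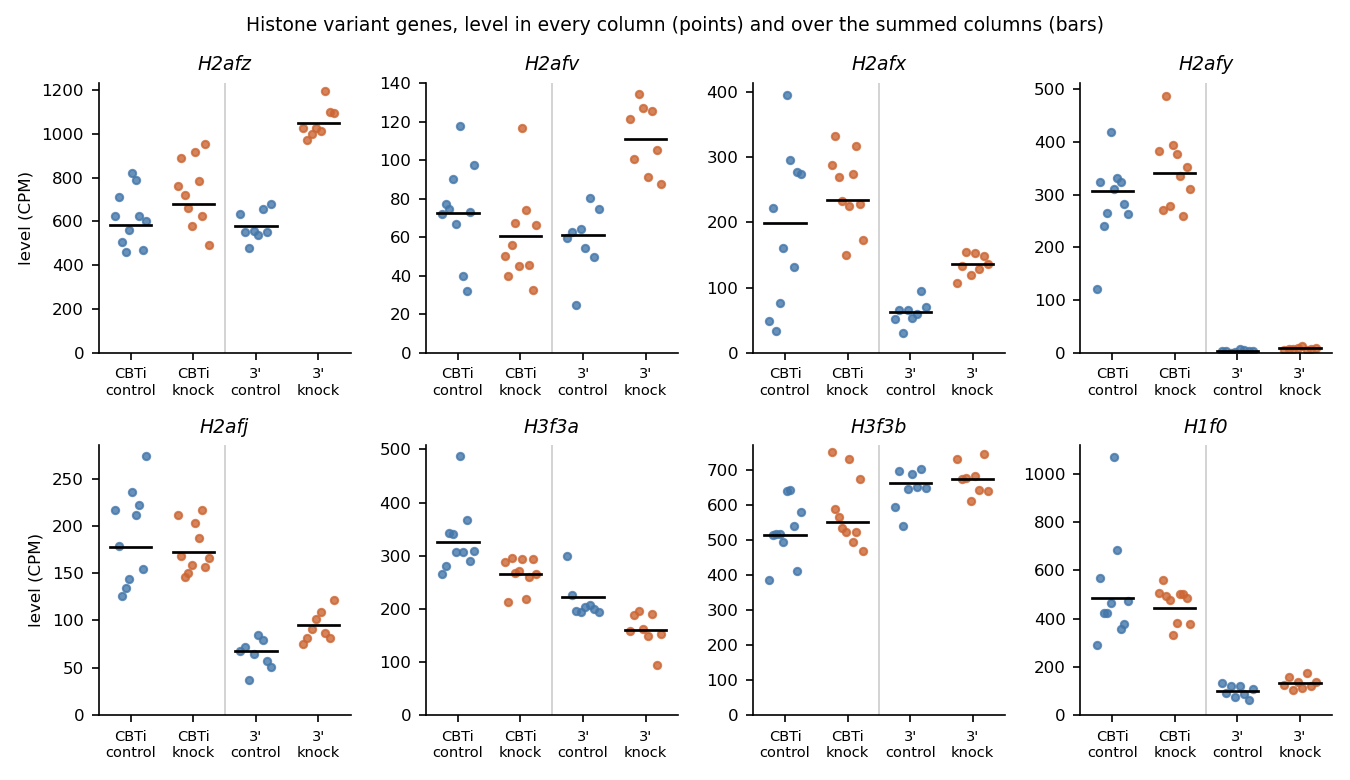
Level (CPM, linear axis from 0) of each of the 8 genes in every column (points, blue for control and orange for knock) and over the summed columns of the group (black bars), for CBTi-seq on the left of each panel and the 3' libraries on the right. The 3' columns of H2afz, H2afv and H2afx separate by label, the CBTi-seq columns of all 8 genes overlap, and H2afy is near 0 in the 3' libraries only.

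**Figure D2:**
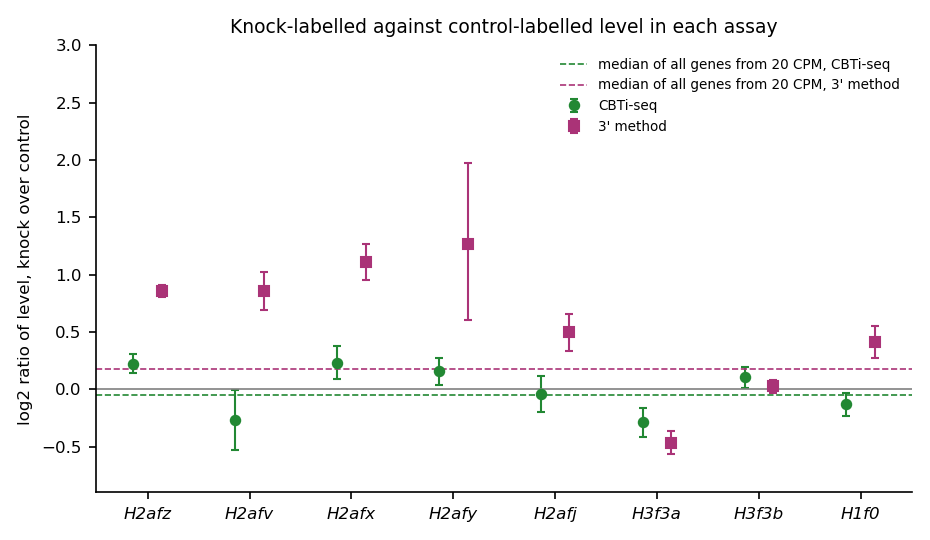
log2 ratio of knock over control for the 8 genes in CBTi-seq (green circles) and between the 3' libraries (purple squares), with exact 95% intervals that cover counting error only; dashed lines are the medians of all genes from 20 CPM (-0.05 and 0.18). As labelled, H3f3a is below 0 in both assays, and H2afv and H1f0 are below 0 in CBTi-seq and above it in the 3' libraries.

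H2afz encodes the main H2A.Z, which is exchanged into nucleosomes beside active start sites. In CBTi-seq its control columns ran from 459.8 through a median of 614 to 821 CPM and its knock columns from 493.3 through 742 to 954 CPM. These ranges overlapped over most of their width. Over the summed columns H2afz had 582 CPM in control and 679 CPM in knock, for a log2 ratio of 0.22 (0.14 to 0.31), and leaving out single columns moved it between 0.14 and 0.32 (0.32 without knock column 10). The 3' columns labelled control ran from 478 through 554 to 680.1 CPM and those labelled knock from 974 through 1028 to 1196 CPM. Every column labelled knock was above every column labelled control, and the summed levels of 580.0 and 1051 CPM gave a log2 ratio of 0.86 (0.80 to 0.91). H2afz has close copies in the annotation. The gene Tmcc1 has an annotated transcript that matches H2afz over 682 bases at 99.9% identity, and the pseudogene Gm8203 matches it over 387 bases at 100%. Tmcc1 stood at 255.8 and 555 CPM in the 3' libraries (log2 ratio 1.12) and at 128 and 159 CPM in CBTi-seq (0.32), while Gm8203 had 296 counts in each CBTi-seq group and was listed at 0 in both 3' tables. The sources used here do not say how reads that match several genes were counted, so the level of H2afz is uncertain. With the rows of 3 copies of at least 95% identity added, an alternative chosen after seeing the data, the log2 ratio was 0.23 in CBTi-seq and 0.94 between the 3' libraries.

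H2afv encodes the second H2A.Z protein and was the scarcer of the pair. Its CBTi-seq columns ran from 32.1 through 74.0 to 118 CPM in control and from 32.7 through 53.2 to 117 CPM in knock, on 3 to 62 and 5 to 49 counts a column. The columns overlapped almost fully, and the summed levels of 72.8 and 60.4 CPM differed by a log2 ratio of -0.27 (-0.53 to -0.01). Between the 3' libraries H2afv ran from 25.04 through 61.0 to 80.4 CPM in the columns labelled control and from 87.8 through 113 to 135 CPM in those labelled knock. These did not overlap, and the log2 ratio was 0.86 (0.69 to 1.02). H2afz made up 88.9% (87.6 to 90.1) of the counts of the pair in CBTi-seq control and 91.8% (90.7 to 92.9) in knock columns. Its share in the 3' libraries was 90.4% (89.6 to 91.3) and 90.5% (89.9 to 91.0). Between the 3' libraries the log2 ratio of H2afz was above that of H2afv by 0.002, by 0.09 with the copies added, and by 0.42 with columns thinned to 50000 counts (1.06 and 0.64). Thinning keeps only a part of the counts, and the thinned values have no interval. In CBTi-seq the share of H2afz in 9 of 10 knock columns lay above the control median of 88.4%, with 2 above all control columns.

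H2afx encodes H2A.X, whose phosphorylated form marks DNA breaks. It varied most between CBTi-seq control columns, from 33.4 through a median of 191 to 396 CPM, an 11.8-fold range with a coefficient of variation of 63.0% beside 15.97% expected from counting alone. The knock columns ran from 150 through 251 to 332 CPM and had a coefficient of variation of 23.6% (counting, 11.8%). All knock columns lay inside the control range, and 4 control columns lay below the lowest knock column, 3 of them at 33.4 to 76.0 CPM. The summed levels of 199 and 234 CPM gave a log2 ratio of 0.23 (0.09 to 0.37), which ran from 0.06 without control column 3 to 0.40 without control column 9. The 3' columns of H2afx ran from 30.0 through 62.5 to 94.8 CPM in the columns labelled control and from 107 through 134 to 155 CPM in those labelled knock. No column overlapped, and 63.1 against 136 CPM was a log2 ratio of 1.11 (0.96 to 1.27), or 2.16-fold. The call ended under other scalings, with log2 ratios of 0.96 under TMM factors, 0.96 under median-of-ratios factors and 0.98 with mitochondrial and ribosomal protein genes out of the totals. These scalings moved the median log2 ratio of genes from 50 CPM between the 3' libraries by -0.15, -0.16 and -0.13. The coding part of H2afx is at least 90% identical over 200 bases or more to 20 other genes, mostly S phase H2A genes. The rows of these 20 held 894 counts in the control-labelled library and 6349 in the knock-labelled one, of which H2afj had 477 and 872. Their part in the H2afx counts was not tested.

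H2afy encodes macroH2A1, an H2A with a large extra domain. Its CBTi-seq columns ran from 120.3 through 297 to 419 CPM in control and from 259 through 344 to 487 CPM in knock, and overlapped. Summed, it stood at 306 and 341 CPM (log2 ratio 0.16, 0.04 to 0.27). Only 25 counts fell on it in the control-labelled 3' library (3.54 CPM, 2.29 to 5.22) and 78 in the knock-labelled one (8.51 CPM, 6.73 to 10.6). Its log2 ratio there of 1.27 had an interval of 0.60 to 1.98, and at this level it was below the 50 CPM needed for a call. CBTi-seq thus gave H2afy a level 86.6-fold (58.4 to 134) above the 3' method in control and 40.1-fold (31.9 to 51.1) in knock. The median over genes from 50 CPM in CBTi-seq was 3.26-fold and 2.28-fold, and 8.37% and 8.28% of them had a fold as high as that of H2afy. These genes were picked by their CBTi-seq level with no limit on their 3' level, a choice that favours high folds. For the other members the fold of CBTi-seq over the 3' method in control ran from 0.78 for H3f3b and 1.004 for H2afz, through 1.19 for H2afv, 1.46 for H3f3a, 2.63 for H2afj and 3.16 for H2afx, to 4.95 for H1f0.

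H2afj encodes H2A.J, an H2A variant known to build up in senescent fibroblasts. The CBTi-seq columns ran from 126 through 195 to 273 CPM in control and from 146 through 167 to 217 CPM in knock. The knock columns lay inside the control range, and 177 against 173 CPM was a log2 ratio of -0.04 (-0.20 to 0.12), which turned to 0.04 under TMM factors. The 3' columns of H2afj ran from 37.6 through 65.8 to 84.2 CPM under the control label and from 74.9 through 88.9 to 121 CPM in those labelled knock. These overlapped, and the log2 ratio was 0.50 (0.33 to 0.66), or -0.09 with each column thinned to 50000 counts. The thinned value rests on fewer counts and has no interval. H2afj also shares at least 90% identity with 15 other genes, mostly of the S phase H2A class. Their rows held 710 counts in the control-labelled 3' library and 6584 in the knock-labelled one, of which H2afx had 446 and 1250. The part of these genes in the H2afj counts was not tested.

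H3f3a and H3f3b encode the same H3.3 protein, which is placed at active genes by HIRA and in heterochromatin by DAXX and ATRX. H3f3a was the member with the lower level under the knock label in both assays. In CBTi-seq it ran from 265 through 308 to 488 CPM in control columns and from 212 through 269.9 to 296 CPM in knock columns, so every knock column was below the control median. The summed levels were 325 and 266 CPM, for a log2 ratio of -0.29 (-0.41 to -0.17). The 3' columns gave the same order: H3f3a ran from 194 through 202 to 299 CPM under the control label and from 94.95 through 159.7 to 196 CPM in those labelled knock, and again every knock column was below the control median. The summed levels were 222 and 161 CPM, for a log2 ratio of -0.46 (-0.57 to -0.36). Since Rrm2 goes against these labels, the direction rests on them: with the labels exchanged the 3' value would be 0.46, opposite to CBTi-seq. The sign was the same in all 31 alternatives tried for CBTi-seq and all 24 for the 3' libraries, single columns left out included. Pseudogenes make up 37 of the 38 annotated genes of at least 90% identity to H3f3a. All 38 together held 8.68% as many counts as H3f3a in CBTi-seq and 2.40% in the 3' libraries.

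H3f3b stayed near level. Its CBTi-seq columns ran from 385 through 518 to 642 CPM in control and from 469 through 549 to 752 CPM in knock, with a log2 ratio of 0.11 (0.01 to 0.20) between 513 and 552 CPM. Its 3' columns ran from 541 through 649.7 to 702 CPM in the control-labelled library and from 612 through 675 to 744 CPM in the knock-labelled one. Those ranges overlapped too, and the log2 ratio of 0.03 (-0.03 to 0.08) between 661 and 674 CPM turned negative under other scalings (-0.13 under TMM factors).

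The share of H3f3b in the counts of both H3.3 genes does not depend on the scaling. In CBTi-seq it was 61.2% (59.5 to 62.9) in control and 67.5% (65.7 to 69.2) in knock columns. The 10 control columns ran from 56.7% through 60.3% to 67.7% and the 10 knock columns from 63.9% through 68.0% to 73.5%. All 10 knock columns were above the control median and 5 were above every control column. Those 5 were also the shallowest knock columns (153051 to 310094 counts), and the deepest, at 735871 counts, had the lowest share, 63.9%. The part of depth in the CBTi-seq share was not tested. The 3' share was 74.9% (73.8 to 75.9) in the control-labelled library and 80.7% (79.8 to 81.6) in the knock-labelled one. Columns ran from 66.5% through 76.3% to 77.8% and from 77.1% through 79.9% to 88.7%, with all 8 columns labelled knock above the control median and 6 above every control column. The log2 ratio of H3f3b to H3f3a was higher in knock by 0.39 in CBTi-seq and by 0.49 between the 3' libraries. The 2 assays share no library. The direction in the 3' libraries again rests on labels that Rrm2 goes against, and with those exchanged the share would go from 80.7% to 74.9%, opposite to CBTi-seq.

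**Figure D3:**
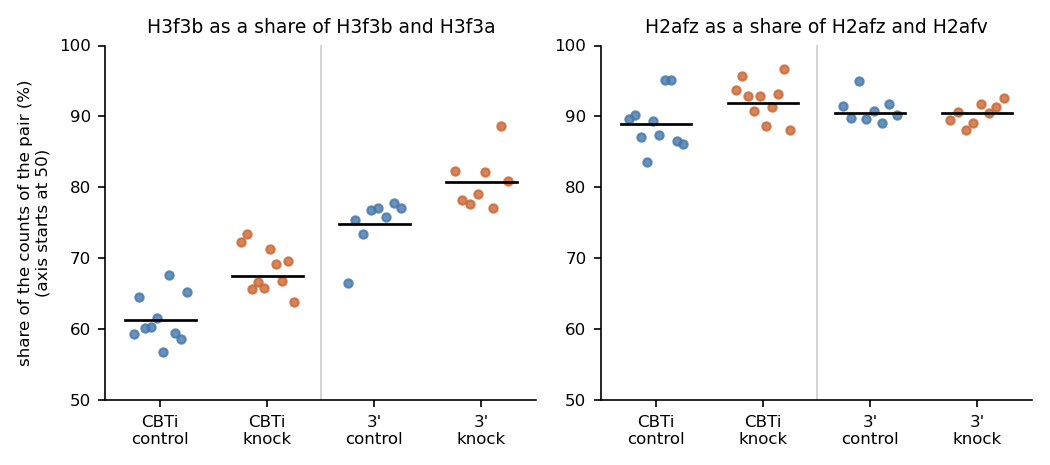
Share (%) of H3f3b in the counts of the H3.3 pair (left) and of H2afz in those of the H2A.Z pair (right) in every column (points, blue for control and orange for knock) and over summed columns (black bars); the axis starts at 50. The H3f3b share is higher under the knock label in both assays (61.2% to 67.5% and 74.9% to 80.7%, the latter reversed if the 3' labels are exchanged), and the H2afz share stays between 88.9% and 91.8% in all 4 groups.

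H1f0 encodes H1.0. Its CBTi-seq control columns ran from 289 through 444 to 1069 CPM and its knock columns from 331 through 488 to 562 CPM. The knock columns lay inside the control range. The summed levels of 487 and 444 CPM gave a log2 ratio of -0.13 (-0.23 to -0.03), which was -0.01 without control column 6, the one at 1069 CPM. The 3' columns of H1f0 ran from 62.7 through 101 to 134 CPM in the columns labelled control and from 105 through 130.5 to 173 CPM in those labelled knock. These overlapped, and 98.3 against 131 CPM was a log2 ratio of 0.41 (0.27 to 0.55).

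Levels of different genes were compared per kilobase of the longest coding transcript, a measure that suits CBTi-seq only if its counts spread along transcripts and that is not suited to counts taken at one end. In CBTi-seq control the order was H2afz (545 CPM per kb), H1f0 (237), H3f3b (204), H2afy (149.7), H2afx (144), H3f3a (114), H2afj (96.9) and H2afv (44.6). The columns of neighbours in this order overlapped throughout, H2afz and H1f0 included (430.1 to 768 against 140.5 to 520.1). In knock columns H2afz stood apart at 635 CPM per kb, its lowest column at 461 and the highest of H3f3b at 299, and H2afv was again lowest at 37.0. Per kilobase in the 3' libraries, H2afz was highest (543 and 983 CPM per kb) and H3f3b second (263 and 268), each with columns apart from the next gene, and H2afy was lowest (1.73 and 4.16), also apart.

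In CBTi-seq, depth moved with the level of the abundant members. No gene had more than 638 counts in any CBTi-seq column, although the deepest column held 846819. Across the 10 knock columns the CPM of H2afz had a correlation of -0.91 with log2 of the column total and that of H3f3b one of -0.80, while in control columns these were -0.34 and 0.18. H2afx (0.26 in control, -0.49 in knock) and H3f3a (0.09 and -0.11) were less tied to depth. Corrected for collisions in a pool of 700 identifiers, the log2 ratio of H2afz was 0.21 and that of H3f3b 0.09.

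**Figure D4:**
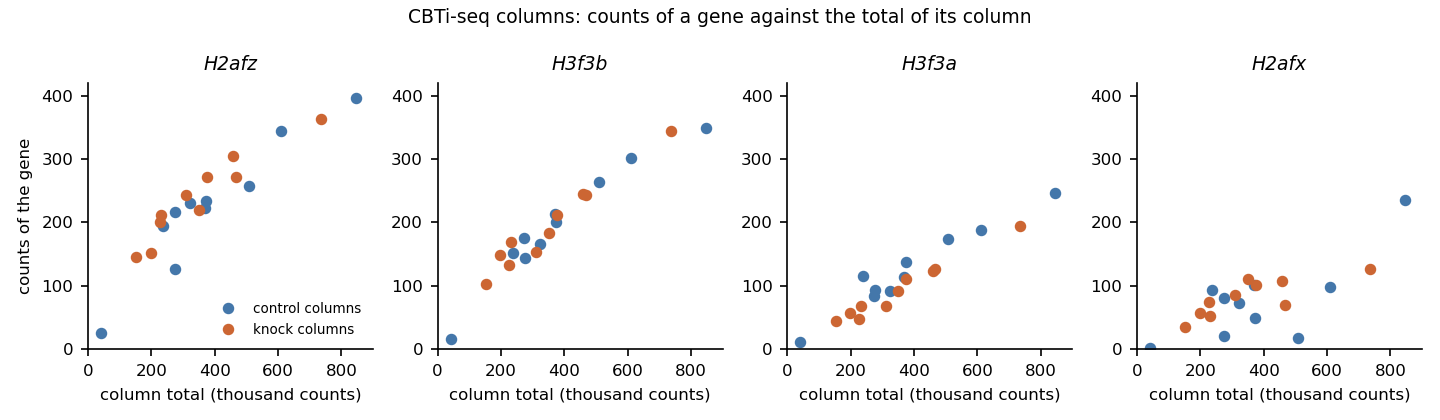
Counts of H2afz, H3f3b, H3f3a and H2afx in each CBTi-seq column (blue control, orange knock) against the total of that column, on linear axes from 0. H2afz and H3f3b flatten in the deepest columns, the knock columns of H3f3a lie along the lower edge of the control columns, and H2afx scatters widely among control columns.

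The relation of each gene to the cell cycle was described across the columns of a group, which share a library and differ in depth, first for CBTi-seq. The summed level of 44 G2 and M phase genes ran from 2168 through a median of 7255 to 11243 CPM in CBTi-seq control columns and from 5671 through 7964 to 11319 CPM in knock columns. H2afx had a Pearson r of 0.85 and a Spearman rho of 0.88 over 10 control columns and 0.63 and 0.59 over 10 knock columns. Without the 2 columns farthest from the median of that sum, r was 0.79 and 0.65, and with the column total removed it was 0.84 and 0.58. Of 5243 genes, 38 (0.725%) had an r as high as that of H2afx in both groups. The 2 control columns lowest in G2 and M phase RNA, at 2168 and 3126 CPM, held H2afx at 76.0 and 33.4 CPM, and the control column highest in H2afx, at 396 CPM, was the third highest in that sum, at 10125 CPM.

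H1f0 had an r of 0.50 in control and 0.64 in knock columns with the same sum (rho 0.48 and 0.49), and 99 genes (1.89%) had values as high in both. H2afz had 0.54 and 0.40 (rho 0.43 and 0.33). Its r was 0.19 and 0.28 without the 2 farthest columns, and 0.68 and 0.31 with the column total removed. In control it ran from 0.40 to 0.92 with single columns left out, so its size depends on the columns kept. H2afy (0.42 and -0.76) and H3f3a (0.07 and -0.68) differed in sign or size between the groups, and H2afv had -0.03 and -0.05. H3f3b had 0.21 and -0.09, and 0.18 and -0.57 with the column total removed. H2afj had 0.33 and 0.16. With S phase genes, r for H2afx was -0.12 in control and -0.66 in knock columns and for H1f0 -0.32 and -0.67. The same r was taken over 8 columns in each 3' group, control-labelled first. With G2 and M phase genes H2afx had 0.66 and 0.07, H1f0 -0.38 and 0.006, and H2afz -0.16 and -0.47. The CBTi-seq relation of H2afx was thus seen under the control label only, and those of H1f0 and H2afz under neither. The G2 and M phase sum varied little within these 3' groups, from 1221 to 1421 and from 3425 to 3741 CPM. None of these correlations carries a p, since the points are columns of 1 sample.

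**Figure D5:**
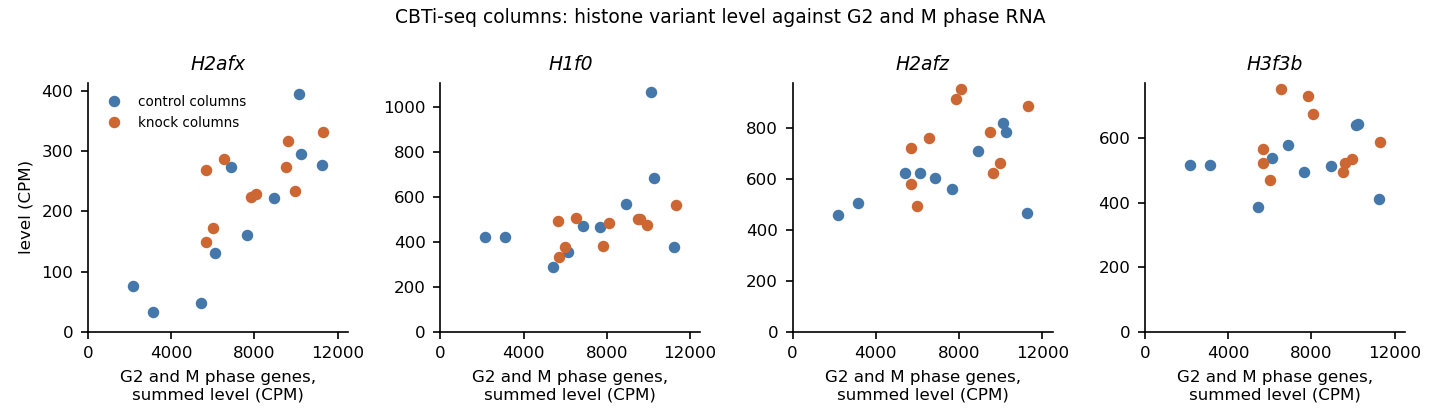
Level (CPM) of H2afx, H1f0, H2afz and H3f3b in each CBTi-seq column against the summed level (CPM) of 44 G2 and M phase genes, with 10 control columns in blue and 10 knock columns in orange, on linear axes from 0. H2afx rises along the axis in both groups (r 0.85 and 0.63) and H3f3b has r of 0.21 and -0.09.

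Over the 20 CBTi-seq columns, with the group mean and the column total removed, the genes most like H2afx among 4966 from 50 CPM were Ube2c (r 0.92), which tags mitotic cyclins for destruction, Hmgb2 (0.92), a chromatin protein, Tubb4b (0.92), a tubulin, and Aurkb (0.91), a mitotic kinase. Ube2c and Aurkb belong to the G2 and M phase list, and the other two do not. The genes most like H2afz were Pbk (0.91), a mitotic kinase, Cks1b (0.90), a partner of cyclin-dependent kinases, Pdia4 (0.90) and Gtf2f1 (0.90). Those most like H1f0 were Plk4 (0.87), the kinase of centriole duplication, Pja1 (0.84), Cops7a (0.83) and Cenpa (0.81), the centromeric H3 variant. Among the members themselves, H2afx had an r of 0.70 with H1f0 and 0.68 with H2afz, while H2afv stayed between -0.11 and 0.17 with every other member.

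Cell cycle RNA also differed between the 3' libraries. The S phase list summed to 1009 to 1187 CPM in the columns labelled control and 2579 to 2830 CPM in those labelled knock, and the G2 and M phase list to 1221 to 1421 and 3425 to 3741 CPM. Replication-dependent histone genes summed to 227 to 376 and 1116 to 1736 CPM, led by Hist1h2ao at 7.50 and 328 CPM (log2 ratio 5.45). The members together, of which H3f3a was lower and H3f3b near level, summed to 1757 and 2367 CPM, 1.35-fold, against 4.03-fold for the replication-dependent genes. In CBTi-seq the same sums were 2663 and 2750 CPM for the members and 257 and 382 CPM for the replication-dependent genes, of which 1 control column, the shallowest, alone held 2189 CPM. Since RNA was primed with oligo dT and replication-dependent mRNAs end in a stem-loop, their sums may not stand for all such RNA. Only 11 of 70 of these genes had 20 CPM or more in the 3' libraries, and 3 of 62 in CBTi-seq. The part of cell cycle composition in the 3' differences was not tested.

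The factors that place these variants were near level in CBTi-seq. For H2A.Z exchange (the SRCAP, TIP60 and INO80 complexes and their chaperones), 8 of 14 genes from 20 CPM were higher and 6 lower, with a median log2 ratio of 0.02, and Brd8 at -0.58 and Yeats4 at 0.27 were the farthest from 0 among those from 50 CPM. For H3.3 deposition it was 3 higher and 4 lower (median -0.05), with Ubn1 of the HIRA complex at 0.33 and Dek, an H3.3 chaperone, at 0.26. General histone chaperones were 8 higher and 7 lower (median 0.05), led by Chaf1a of the chromatin assembly factor at 0.36 and Ncl at 0.31. Genes of H2A.X damage signalling were 3 higher and 6 lower (median -0.08). No gene of these lists, or of the S phase and G2 and M phase lists, was called in CBTi-seq. Over all genes from 20 CPM, 44.7% were higher.

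In the 3' libraries H2A.Z exchange factors did not move as H2afz and H2afv did: 4 of 10 were higher and 6 lower, with a median log2 ratio of -0.18 beside 0.18 over all genes. Yeats4 stood at 43.0 and 83.1 CPM (0.95), while Brd8 was at -0.51 and Anp32e, the chaperone that removes H2A.Z, at -0.37. Of the H3.3 deposition genes 3 of 4 were higher (median 0.65), with Dek at 35.8 and 145 CPM (2.02, called) and Ubn2 at -0.11. General chaperones were higher in 12 of 13 (median 0.69), with Asf1b, which hands H3 and H4 to assembly factors, at 47.8 and 110.3 CPM (1.21, called). The exception was Npm1, nucleophosmin, at 343 and 153 CPM (-1.17, called). Slbp, which binds the stem-loop, was at 68.5 and 117 CPM (0.78), and 4 of 5 genes of stem-loop processing were higher (median 0.18). Cenpa, another variant made outside the S phase programme, was at 83.2 and 236 CPM (1.503, called). Over all genes from 20 CPM, 58.8% were higher in the knock-labelled library.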

How the data were processed

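RNA was measured in 3 samples of L929 cells. Per the file headers, the authors' tables hold raw, whole-number counts: 20 CBTi-seq columns by symbol, under a name that refers to molecular identifiers, and 8 columns in each 3' table by Ensembl ID. The tools STAR 2.7.11b, Picard and FastQC and the builds GRCm38 and GRCh38 stand, without a role, in the submitters' processing notes. The sources used here give no counting tool, strand setting or handling of reads that match several genes, nor whether 3' counts are reads or molecules. Antisense genes overlap H2afx, H2afy, H2afj, H3f3a and H1f0 on the opposite strand, so their reads may be mixed.

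Genes were named from GENCODE vM21 (55141 of 55402 IDs matched) and RefSeq synonyms, promoters from RefSeq (GRCm38.p6), and close copies from blastn 2.17.0 (at least 90% identity over 200 bases). All columns held at least 500 counts and none were left out; no 2 columns were identical, and the tables hold no cell barcodes. Counts were summed per group and scaled to CPM. With 1 sample per group no test was made: exact Poisson and Clopper-Pearson 95% intervals cover counting error only, with 3 counts as the floor for a count of 0. A call is a ratio of at least 2-fold at a mean of 50 CPM. On simulated counts with counting error only, all of 200 altered genes were recovered in each assay. These genes were set well above 50 CPM and altered by more than 2-fold. The simulation therefore does not show how calls fare near the limits or with the wider spread of the real columns. TMM factors came from edgeR 4.0.16 and median-of-ratios factors from DESeq2 1.42.0.

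The members and lists were chosen with earlier results of these data known. Named from each list were up to 4 genes with the largest log2 ratio in size from 50 CPM (not all are printed) and defining cell markers that were absent or low, all 8 members, Rrm2, and for H2afz, H2afx and H1f0 the 4 most alike genes by Pearson correlation of log2(CPM + 10). Alternatives changed the scaling, the limits on level and depth, the collision correction and the copies added, or left out each column.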

Additional observations from a re-analysis of the deposited data

Results flagged for a closer look

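In 5 of 32 groups of columns a single column stood apart from the others, where 1 in 20 groups, or 1.6, would by chance. H2afv in CBTi-seq knock column 6 was at 116.7 CPM, with the next at 74.2 CPM. CBTi-seq control column 6 was highest for both H3f3a, at 488 CPM (next 367), and H1f0, at 1069 CPM (next 686). In the 3' library labelled control, column 1 held H3f3a at 299 CPM (next 227), and in the one labelled knock column 7 held it at 94.95 CPM, below the next lowest at 148 CPM.

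The direction differed between the assays for H2afv, at a log2 ratio of -0.27 in CBTi-seq and 0.86 between the 3' libraries, and for H1f0, at -0.13 and 0.41. These differences were not tested, since each group is 1 sample, and they rest on 3' labels that Rrm2 goes against. With the labels exchanged the 3' values would be -0.86 and -0.41, on the same side as CBTi-seq, as would H2afj (-0.50). The other members would then be opposite to CBTi-seq: H2afz at -0.86, H2afx at -1.11, H2afy at -1.27, H3f3a at 0.46 and H3f3b at -0.03.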

How the results depend on the processing

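The count of members called between the 3' libraries was 1, and it was 0 under TMM factors, 0 under median-of-ratios factors, 0 when totals left out mitochondrial and ribosomal protein genes, 0 at a limit of 100 CPM, and 2 with columns thinned to 50000 counts. In CBTi-seq it was 0 in all 31 alternatives. The log2 ratio kept its sign in every alternative for 7 of 8 members in CBTi-seq (not H2afj) and 6 of 8 in the 3' libraries (not H2afj and H3f3b). The median over the 8 ranged from -0.03 to 0.11 in CBTi-seq and from 0.52 to 0.71 in the 3' libraries. Over all genes, TMM factors changed the 3' calls from 377 higher and 128 lower to 270 and 206; thinning gave 47 and 109 CBTi-seq calls and the mean of column CPM 18 and 66, in place of 18 and 35. The thinned ratio of H2afy between the 3' libraries had no finite value. All thinned values rest on a part of the counts and have no interval, so they carry more counting error than the main ones. No paired analysis was possible because each group is 1 sample. The 1-sample groups, the low 3' counts of H2afy and the CBTi-seq ceiling of 638 counts limit all values.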
